A study of Mus musculus with 30 samples.

Results

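The core pluripotency and Dppa genes are 10 genes grouped under general stem cell identity, namely Pou5f1, Sox2, Sall4, Lin28a, Zfp281, Tdgf1, Dppa2, Dppa4, Dppa3 and Dppa5a. Whether each gene marks general identity rather than the naive state was not tested. The 10 genes were taken by symbol from the 55421 genes of the count table, and all 10 passed the filter on low counts. The study asked how the dosage of cohesin cofactors acts on the genome of mouse embryonic stem cells, and here its messenger RNA is described. Polyadenylated RNA was sequenced in 30 libraries from 5 engineered lines of male E14 cells of 129P2/Ola background, sampled before and after treatment for 24 h, which makes 10 groups of 3 libraries. The cells grew without a feeder layer in serum with leukemia inhibitory factor and the inhibitors PD0325901 and CHIR-99021, a medium that holds them in the naive state.

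All 5 lines express Tir1, a plant protein that marks a protein fused to an auxin-inducible degron (AID) for destruction when auxin is present. The TIR1 line carries Tir1 alone, without a degron fusion, and was sampled untreated and with auxin at 500 µM. The PDS5AB line carries PDS5A-AID and PDS5B-AID, the WAPL line carries WAPL-AID, and both were sampled untreated and with auxin. The PDS5AB-NIPBL line carries PDS5A-AID, PDS5B-AID, NIPBL-FKBP and RAD21-Halo, and the WAPL-NIPBL line carries WAPL-AID, NIPBL-FKBP and RAD21-Halo. These combined lines were sampled untreated and with auxin plus dTAG-13 at 500 nM, the compound that sends FKBP fusions to destruction. PDS5A, PDS5B and WAPL limit the time cohesin stays on DNA, and NIPBL drives the extrusion of loops by cohesin. Each genotype is represented by 1 cell line, so a difference between genotypes cannot be told apart from a difference between lines, and no group received dTAG-13 alone. Nothing in the labels says that the libraries of a group came from separate cultures, so the p-values measure the spread between these libraries, which may be technical.

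POU5F1 (also called OCT4) and SOX2 bind DNA side by side at the enhancers of pluripotency genes, their own among them, and the cell leaves the stem cell state when either is lost. SALL4 and ZFP281 are zinc finger factors of the same network, LIN28A is an RNA-binding protein that blocks the maturation of let-7 microRNAs, and TDGF1 (Cripto) is a cell surface co-receptor for the growth factor Nodal. The Dppa genes were named for their developmental expression in pluripotent cells. DPPA2 and DPPA4 act as a pair at bivalent promoters and upstream of the two-cell-like programme, DPPA3 (Stella) shields DNA from maintenance methylation by holding back UHRF1, and DPPA5A is an RNA-binding protein abundant in stem cells. Unlike naive factors such as Klf4 and Esrrb, Pou5f1, Sox2 and Lin28a stay on when cells move from the naive to the primed state.

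The promoters of 5 of the 10 genes could be read from RefSeq windows (build GRCm38.p6), which run from 250 bases before to 50 bases after the annotated start. Of these, Pou5f1 and Sox2 are shown as the pair at the centre of the network, and Lin28a for its difference between PDS5AB and WAPL cells. Capitals mark matches on either strand. The motifs searched were the octamer bound by POU factors (ATGCAAAT) and its first 7 letters, and the core of the site bound by SOX factors (ACAAAG). A GC box (GGGCGG), as bound by SP1, was searched too. The nuclear receptor half-site was spelled AGGTCA. The start of the site of ERR and NR5A receptors was spelled TCAAGG. The TATA box was spelled TATAAA. The Pou5f1 window is chr17:35505782-35506081 on the plus strand, Sox2 is chr3:34649745-34650044 on the plus strand, and Lin28a is chr4:134018767-134019066 on the minus strand.
Pou5f1: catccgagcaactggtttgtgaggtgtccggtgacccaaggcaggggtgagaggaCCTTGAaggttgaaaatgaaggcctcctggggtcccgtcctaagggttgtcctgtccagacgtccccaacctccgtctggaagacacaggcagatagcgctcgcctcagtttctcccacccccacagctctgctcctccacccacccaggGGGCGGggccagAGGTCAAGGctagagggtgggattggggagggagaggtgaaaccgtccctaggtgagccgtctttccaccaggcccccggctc
Sox2: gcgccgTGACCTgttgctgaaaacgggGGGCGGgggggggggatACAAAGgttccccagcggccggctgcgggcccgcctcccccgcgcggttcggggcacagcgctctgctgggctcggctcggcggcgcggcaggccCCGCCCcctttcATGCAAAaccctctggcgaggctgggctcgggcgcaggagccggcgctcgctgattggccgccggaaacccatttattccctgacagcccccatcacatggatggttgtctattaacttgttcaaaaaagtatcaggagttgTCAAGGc
Lin28a: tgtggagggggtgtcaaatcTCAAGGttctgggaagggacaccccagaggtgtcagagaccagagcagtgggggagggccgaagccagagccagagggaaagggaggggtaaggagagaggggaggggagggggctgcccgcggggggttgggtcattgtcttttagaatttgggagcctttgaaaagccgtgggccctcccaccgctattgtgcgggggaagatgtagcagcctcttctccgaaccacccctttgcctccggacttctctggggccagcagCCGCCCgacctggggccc

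In Pou5f1 the GC box began at -45 relative to the start, the half-site at -33 and the receptor start site at -30, so that the last pair overlap and print as one run of capitals. Sox2 held the first 7 letters of the octamer at -99 and the SOX core at -206, and neither the full octamer nor the TATA box was found in any of the 6 windows of these genes. Among all 32851 windows of the same length, 1.74% held the octamer, 4.63% its first 7 letters, 18.7% the SOX core, 35.7% the GC box, 16.3% the half-site, 14.4% the receptor start site and 13.6% the TATA box. The Zfp281 window held the GC box at 4 places and the Tdgf1 window at 1, and the window at the other Pou5f1 start held none of the 7 motifs. These matches describe letters and show no binding. The deposited table starts Sox2 at 34650405, downstream of the RefSeq start.

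In the deposited gene models (GENCODE vM23 on GRCm38), Pou5f1 (ENSMUSG00000024406) spans chr17:35506018-35510772 and Sox2 (ENSMUSG00000074637), a single-exon gene, spans chr3:34650405-34652461, both on the plus strand. Dppa4 (ENSMUSG00000058550, chr16:48283733-48294237) and Dppa2 (ENSMUSG00000072419, chr16:48303908-48319723) are neighbours on the plus strand of chromosome 16. Sall4 (ENSMUSG00000027547) spans chr2:168748332-168767943 and Lin28a (ENSMUSG00000050966) chr4:134003330-134018841, both on the minus strand. Zfp281 (ENSMUSG00000041483) lies at chr1:136624901-136630053 and Dppa3 (ENSMUSG00000046323) at chr6:122626410-122630272, both on the plus strand. Tdgf1 (ENSMUSG00000032494) lies at chr9:110939603-110946158 and Dppa5a (ENSMUSG00000060461) at chr9:78367052-78368177, both on the minus strand.

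Some of these genes share sequence with other genes, and values for them are uncertain to that extent. Of all windows of 75 bases along the longest transcript, 25.75% in Dppa2, 23.7% in Dppa4 and 19.45% in Dppa5a also occur in transcripts of other genes, for Dppa5a in 6 genes with Dppa5b and Dppa5c among them. The share was 8.67% for Tdgf1, with Tdgf1-ps1, and 4.08% for Dppa3, with Dppa3-ps, whereas Sox2 and Zfp281 shared none. For 3 genes the shared windows belong to a gene on the other strand of the same locus, with 11.41% for Pou5f1 (Gm19553), 4.38% for Sall4 (Gm14261) and 0.93% for Lin28a (Gm13061). These overlaps cover 317 exon bases of Pou5f1, 526 of Sall4 and 234 of Lin28a, and the recorded counting command sets no strand option, so reads of the overlapping pair cannot be told apart there.

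Total counts per library ran from 19632704 to 45539021 fragments, and no pair of libraries held identical counts. The library numbers in the labels fall into separate runs. Untreated TIR1 and all PDS5AB libraries are numbered up to 21, and all other libraries, auxin-treated TIR1 included, from 25. Among the latter the auxin-treated TIR1 libraries carry the last numbers, after those of every other group. The TIR1 treatment effect, the baselines of the other 3 degron lines and every difference from the TIR1 effect cross the gap between 21 and 25. They have no value within one run, so they cannot be told apart from this gap. The differences of the PDS5AB effect from the WAPL and PDS5AB-NIPBL effects set an effect measured within one run against an effect measured within the other. The label of the cells was checked on 6 stem cell markers outside the 10 genes (Nanog, Zfp42, Esrrb, Klf4, Fgf4 and Utf1). Their summed level was 3030 to 3520 CPM (counts scaled to the library size and its TMM factor) in the untreated libraries and 1640 to 2930 CPM in the treated ones. Summed over 7 primitive endoderm markers, which include Gata6, Gata4 and Sox17, the level was 5.78 to 27.3 CPM in the untreated libraries and 10.1 to 72.6 CPM in the treated ones.

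Compared per length, as FPKM (CPM divided by the exon length in kilobases) averaged over the 30 libraries, Dppa5a stood highest at 1800. Pou5f1 followed at 306, Tdgf1 at 304 and Sox2 at 182. Sall4 had 56.1, Lin28a 28.9, Zfp281 25.2, Dppa4 24.5 and Dppa2 23.2, and Dppa3 was lowest at 6.79. The members also differed in how far their level moved. The highest of the 10 group means was 22.6 times the lowest for Dppa3, 3.79 times for Sox2, 2.97 for Dppa4 and 2.54 for Dppa2. For Lin28a the ratio was 2.07, and for Tdgf1, Dppa5a, Pou5f1, Sall4 and Zfp281 it lay between 1.42 and 1.77. Within groups the median coefficient of variation was 3.64% for Zfp281 and 15.5% for Dppa3, whose counts ran from 18 to 1002 fragments per library.

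**Figure D1:**
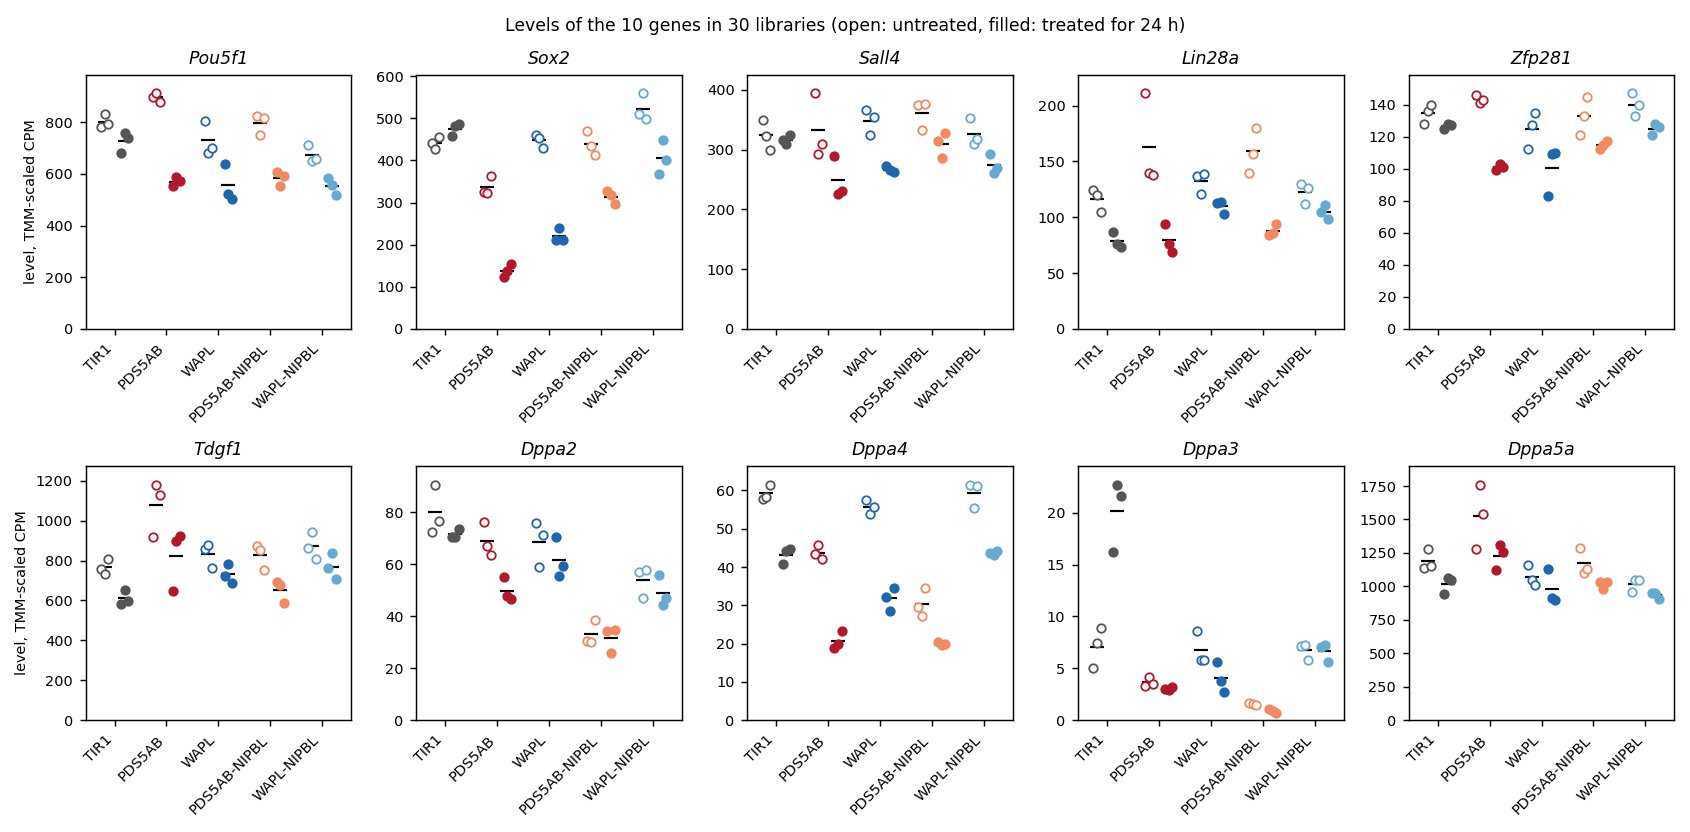
Level of each gene in every library (vertical axis, TMM-scaled CPM, linear from 0) by line (horizontal axis). Open points are untreated and filled points treated libraries, and the black bar is the mean of 3. Sox2 falls to 123 to 153 CPM in treated PDS5AB cells, and Dppa3 stands at 16.2 to 22.7 CPM in auxin-treated TIR1 cells alone.

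On auxin, 9 of the 10 genes fell in PDS5AB cells and none rose. The gene not called was Dppa3. Of all 19868 genes tested, 46% were called in this comparison (edgeR's quasi-likelihood test, Benjamini-Hochberg adjusted p under 0.05), 20.2% as lower. The median log2 fold change of the 10 genes was -0.49, beside 0.04 over all genes. In WAPL cells 6 of the 10 fell and none rose, where 32.8% of all genes were called and 15.8% were lower. In PDS5AB-NIPBL cells 5 of the 10 were lower and none higher (19.5% of all genes called, 8.06% lower). In WAPL-NIPBL cells 3 were lower and none higher (8.57% called, 3.45% lower). The median log2 fold changes of the 10 were -0.4 in PDS5AB-NIPBL, -0.35 in WAPL and -0.2 in WAPL-NIPBL cells, beside 0, 0 and 0.01 over all genes. In TIR1 cells auxin went with 3 lower genes and 1 higher (19.9% of all genes called, 9.59% lower and 10.4% higher). In bulk RNA, fewer cells that express a gene and less RNA per cell cannot be told apart. The degron lines share no controls with each other, and the TIR1 effect was subtracted from each in a test of its own, given for the lines in which a gene was called. A fit with a block for replicate number within each line called more of these genes in WAPL and combined-line cells. Its calls are given with the counts over the 10 genes.

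**Figure D2:**
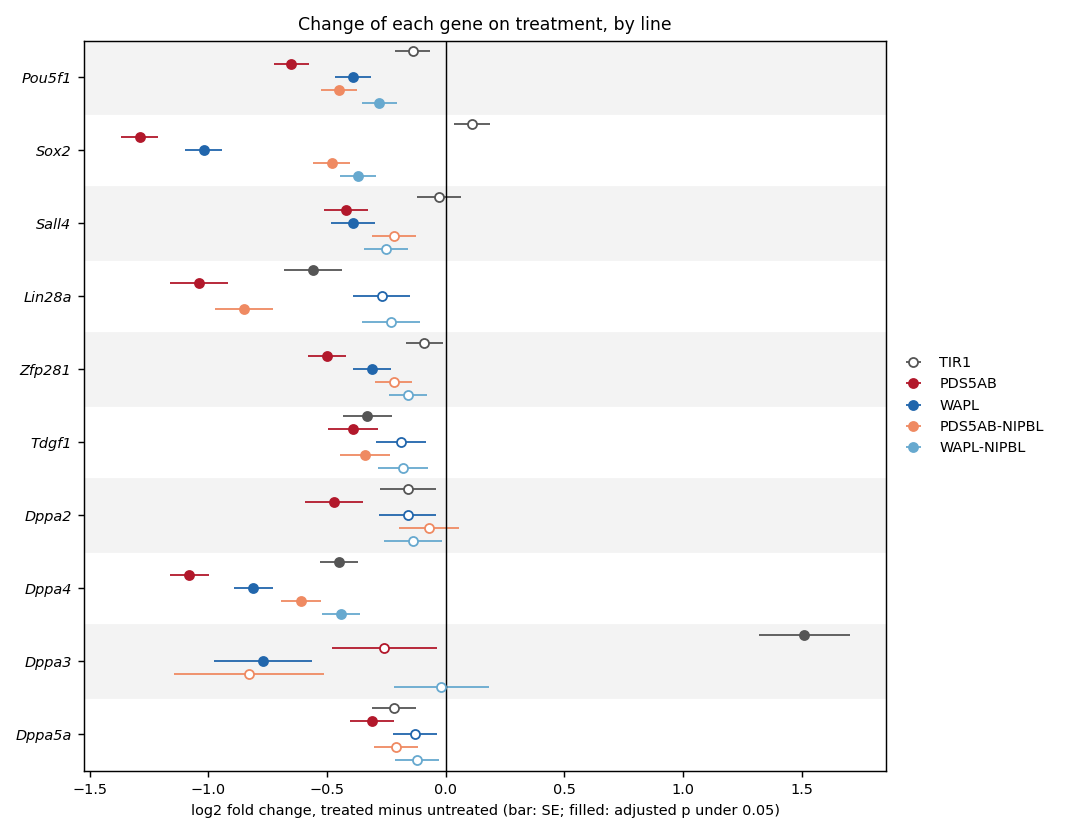
Log2 fold change on treatment (horizontal axis, treated minus untreated) of each gene in each of 5 lines. Bars are standard errors and filled points have an adjusted p under 0.05. All 5 points lie left of 0 for 8 genes, while Sox2 and Dppa3 have a TIR1 point on the right, at 0.11 and 1.51.

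Sox2 had the largest log2 change of the 10 in PDS5AB and in WAPL cells. In PDS5AB cells its 3 untreated libraries held 326, 323 and 363 CPM and its 3 treated libraries 123, 138 and 153. In WAPL cells the values were 461, 453 and 429 untreated and 211, 240 and 210 with auxin. Every treated library of both lines lay below every untreated one. The log2 fold change was -1.29 in PDS5AB (SE 0.0791, adjusted p = 1.49e-13) and -1.02 in WAPL (SE 0.0783, adjusted p = 2.15e-11). In the combined lines Sox2 fell less. PDS5AB-NIPBL libraries went from 469, 433 and 412 CPM to 327, 318 and 297, and WAPL-NIPBL libraries from 510, 559 and 499 CPM to 368, 448 and 401. The treated and untreated values did not overlap, and the log2 fold changes were -0.48 (SE 0.0777, adjusted p = 3.34e-05) and -0.37 (SE 0.0774, adjusted p = 0.00196). In TIR1 cells Sox2 was at 441, 427 and 456 CPM untreated and at 458, 482 and 486 CPM with auxin, a log2 difference of 0.11 that did not pass the test (SE 0.0773, adjusted p = 0.361).

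The effect on Sox2 with NIPBL also targeted was tested against that without. The difference of log2 fold changes was 0.81 between PDS5AB-NIPBL and PDS5AB (SE 0.11, adjusted p = 1.71e-05) and 0.66 between WAPL-NIPBL and WAPL (SE 0.11, adjusted p = 0.000277), so the drop was smaller in each combined line. Less the TIR1 effect, Sox2 was lower in all 4 degron lines, by -1.4 in PDS5AB (adjusted p = 3.74e-10), -1.13 in WAPL (adjusted p = 8.2e-09), -0.59 in PDS5AB-NIPBL (adjusted p = 0.000624) and -0.47 in WAPL-NIPBL (adjusted p = 0.00667). Ordered by mean level, untreated WAPL-NIPBL cells were highest at 523 CPM, and auxin-treated TIR1 with untreated WAPL, TIR1 and PDS5AB-NIPBL followed between 475 and 438 CPM with overlapping neighbours. Treated WAPL-NIPBL (406 CPM), whose libraries overlapped those of untreated PDS5AB-NIPBL cells, did not overlap untreated PDS5AB (337 CPM), which overlapped treated PDS5AB-NIPBL (314 CPM). Treated WAPL (220 CPM) and treated PDS5AB (138 CPM) each stood apart at the bottom.

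Pou5f1, the partner of Sox2, moved by smaller amounts in the same lines. PDS5AB libraries had 899, 912 and 878 CPM untreated and 552, 587 and 573 CPM with auxin. WAPL libraries had 804, 683 and 702 CPM and then 638, 524 and 504 CPM. The groups did not overlap in either line, although the first WAPL replicate was the highest in both of its groups. Log2 fold changes were -0.65 in PDS5AB (SE 0.0748, adjusted p = 2.96e-08), -0.39 in WAPL (SE 0.0746, adjusted p = 0.000114), -0.45 in PDS5AB-NIPBL (SE 0.0747, adjusted p = 4.38e-05) and -0.28 in WAPL-NIPBL (SE 0.0746, adjusted p = 0.0135). The WAPL-NIPBL call was lost without the first untreated library (adjusted p = 0.0969) or the third treated one (adjusted p = 0.0976). PDS5AB-NIPBL libraries had 752 to 825 CPM untreated and 552 to 606 CPM treated, and WAPL-NIPBL libraries 649 to 713 and 519 to 584 CPM. In TIR1 cells Pou5f1 went from 783, 833 and 793 CPM to 682, 760 and 741 CPM, which did not pass the test (log2 -0.14, SE 0.0744, adjusted p = 0.185). After subtraction of the TIR1 effect, Pou5f1 was lower in PDS5AB cells (log2 -0.51, adjusted p = 0.000566). The differences of -0.25 in WAPL (adjusted p = 0.0893), -0.31 in PDS5AB-NIPBL (adjusted p = 0.0568) and -0.14 in WAPL-NIPBL cells (adjusted p = 0.472) did not pass. The 4 treated degron groups had similar mean levels of 553 to 583 CPM with overlapping libraries, below the 6 other groups at 673 to 896 CPM.

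Sall4, a zinc finger factor that keeps Pou5f1 expressed, ranged from 293 to 394 CPM in untreated PDS5AB libraries and from 226 to 289 CPM with auxin. In WAPL cells it ranged from 324 to 367 and from 262 to 272 CPM. The change was -0.42 in PDS5AB (SE 0.0928, adjusted p = 0.000478) and -0.39 in WAPL (SE 0.0927, adjusted p = 0.00155) on the log2 scale. It did not pass in PDS5AB-NIPBL (-0.22, adjusted p = 0.0951), WAPL-NIPBL (-0.25, adjusted p = 0.0932) or TIR1 cells (-0.03, adjusted p = 0.854). Zfp281, a factor needed for the exit from the naive state, fell in PDS5AB cells from 141 to 146 CPM untreated to 99.2 to 103 CPM (log2 -0.5, SE 0.0794, adjusted p = 5.71e-06). In WAPL cells it had 112, 127 and 135 CPM and then 83.1, 109 and 110 CPM (log2 -0.31, SE 0.0795, adjusted p = 0.00302). That call was lost without the low first auxin library (-0.18, adjusted p = 0.0565) and when WAPL cells were fitted alone (adjusted p = 0.115). Zfp281 missed the threshold in PDS5AB-NIPBL cells at an adjusted p of 0.0504 (log2 -0.22). With the TIR1 effect subtracted, the PDS5AB change was -0.41 for Zfp281 (adjusted p = 0.00634) and -0.38 for Sall4 (adjusted p = 0.0291). In WAPL cells the same differences, -0.22 for Zfp281 (adjusted p = 0.171) and -0.36 for Sall4 (adjusted p = 0.0519), did not pass. The Sall4 difference in PDS5AB cells did not pass in 7 of 18 alternative fits, among them those without the first untreated PDS5AB library (-0.24, adjusted p = 0.137), the second or the third auxin-treated PDS5AB library, the third untreated TIR1 library or the third auxin-treated TIR1 library.

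Lin28a fell more in PDS5AB than in WAPL cells. In PDS5AB cells it had 211, 140 and 138 CPM untreated and 93.8, 75.8 and 69.3 CPM treated, and in PDS5AB-NIPBL cells 140, 157 and 180 CPM and then 84.5, 85.7 and 93.9 CPM. In WAPL cells it had 137, 121 and 139 CPM and then 113, 114 and 103 CPM. The first untreated PDS5AB library stood well above the other two, and in all 3 lines the treated libraries lay below the untreated ones. Lin28a fell in PDS5AB cells, with a log2 fold change of -1.04 (SE 0.122, adjusted p = 4.97e-08), and in PDS5AB-NIPBL cells, with one of -0.85 (SE 0.123, adjusted p = 6.08e-06). The change was -0.27 in WAPL (SE 0.121, adjusted p = 0.092) and -0.23 in WAPL-NIPBL (SE 0.121, adjusted p = 0.293). The PDS5AB effect less the WAPL effect was -0.77 (SE 0.172, adjusted p = 0.00257). Lin28a was the 1 member of the 10 called in this difference, where 12.5% of all genes were called and 5.11% were lower. With a block for replicate number within each line other members were called in it too, as given with the counts over the 10 genes. Lin28a also fell in TIR1 cells, from 124, 120 and 105 CPM to 86.8, 76 and 73.8 CPM (log2 -0.56, SE 0.122, adjusted p = 0.0014). The PDS5AB effect less the TIR1 effect was -0.47 (adjusted p = 0.0398). This did not pass in 7 of 18 alternative fits, among them those without the first untreated PDS5AB library (-0.25, adjusted p = 0.216), the second or the third auxin-treated PDS5AB library, the third untreated TIR1 library or the first auxin-treated TIR1 library. In PDS5AB-NIPBL cells the difference from TIR1 was -0.29 and did not pass (adjusted p = 0.315).

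Tdgf1, the Nodal co-receptor, had 919, 1180 and 1130 CPM in untreated PDS5AB cells and 649, 896 and 923 CPM with auxin. These groups overlapped, since the third treated library lay above the first untreated one, and each treated library lay below the untreated library of the same number. The log2 fold change was -0.39 in PDS5AB (SE 0.105, adjusted p = 0.00278), -0.34 in PDS5AB-NIPBL (SE 0.105, adjusted p = 0.0186) and -0.33 in TIR1 cells (SE 0.105, adjusted p = 0.026). Without the first or second untreated or the third treated PDS5AB-NIPBL library the adjusted p was 0.069, 0.0535 and 0.121. The TIR1 call was lost without the first or the third untreated library (adjusted p = 0.072 and 0.0942) or the first or the third treated one (0.114 and 0.0866). Changes in WAPL (-0.19, adjusted p = 0.177) and WAPL-NIPBL (-0.18, adjusted p = 0.357) did not pass. With a block for replicate number within each line both did (adjusted p = 0.000445 and 0.00217). With the TIR1 effect subtracted, the Tdgf1 difference was -0.06 in PDS5AB (SE 0.148, adjusted p = 0.797) and -0.02 in PDS5AB-NIPBL cells (SE 0.148, adjusted p = 0.965), so the falls in these lines were not shown to differ from that in TIR1 cells.

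Dppa4 was lower on treatment in all 5 lines. PDS5AB libraries had 43.4, 45.7 and 42.1 CPM untreated and 18.8, 19.8 and 23.4 CPM treated, and WAPL libraries 57.6, 53.9 and 55.8 CPM and then 32.3, 28.6 and 34.6 CPM. PDS5AB-NIPBL libraries had 29.5, 27.3 and 34.5 CPM and then 20.4, 19.7 and 19.8 CPM, and WAPL-NIPBL libraries 61.3, 55.3 and 61.2 CPM and then 43.6, 43.2 and 44.1 CPM. TIR1 libraries went from 57.8, 58.4 and 61.5 CPM to 40.8, 44.1 and 44.8 CPM. In no line did treated and untreated libraries overlap. The log2 fold changes were -1.08 in PDS5AB (SE 0.0834, adjusted p = 1.72e-11), -0.81 in WAPL (SE 0.0813, adjusted p = 4.76e-09), -0.61 in PDS5AB-NIPBL (SE 0.0858, adjusted p = 4.3e-06), -0.44 in WAPL-NIPBL (SE 0.0805, adjusted p = 0.000383) and -0.45 in TIR1 cells (SE 0.08, adjusted p = 0.000148). Less the TIR1 effect, the change was -0.63 in PDS5AB (adjusted p = 0.000148) and -0.36 in WAPL cells (adjusted p = 0.0239), while -0.16 in PDS5AB-NIPBL (adjusted p = 0.446) and 0.01 in WAPL-NIPBL cells (adjusted p = 0.972) did not pass. The WAPL difference did not pass with upper quartile factors (-0.28, adjusted p = 0.0871), nor without the first untreated WAPL, the second auxin-treated WAPL, or the second or the third auxin-treated TIR1 library (adjusted p of 0.0536 to 0.0668). The log2 effect on Dppa4 was smaller in PDS5AB-NIPBL than in PDS5AB cells, by 0.47 (SE 0.119, adjusted p = 0.0103). Its treated means were close in these lines (20 and 20.6 CPM), while its untreated means differed (30.4 and 43.7 CPM). For Sox2 the treated means of the same lines were apart, at 314 and 138 CPM.

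Dppa2, the partner of Dppa4, fell in PDS5AB cells. There it had 76.1, 67.2 and 63.7 CPM untreated and 55.1, 47.8 and 46.6 CPM treated, with no overlap (log2 -0.47, SE 0.121, adjusted p = 0.00194). In the other 4 lines the treated and untreated ranges overlapped, with log2 values from -0.16 to -0.07 (adjusted p of 0.351 to 0.787). The PDS5AB effect on Dppa2 less the TIR1 effect was -0.31 (adjusted p = 0.182) and less the WAPL effect -0.31 (adjusted p = 0.251), and the PDS5AB-NIPBL effect less the PDS5AB effect was 0.4 (adjusted p = 0.152), none of which passed. With a block for replicate number within each line, a fit described with the counts over the 10 genes, the last pair did pass (adjusted p = 0.00717 against WAPL and 0.00206 against PDS5AB-NIPBL), and Dppa2 was also called lower in WAPL cells (adjusted p = 0.0448). Dppa5a, the most abundant of the 10 per length, had 1280 to 1760 CPM in untreated and 1120 to 1310 CPM in treated PDS5AB libraries. These overlapped, and the change of -0.31 (SE 0.0927, adjusted p = 0.00687) did not pass without the second untreated library (-0.2, adjusted p = 0.102). Its difference from the TIR1 effect was -0.09 and did not pass (adjusted p = 0.678). In the other lines the Dppa5a changes of -0.22 to -0.12 did not pass (adjusted p of 0.0879 to 0.496). The TIR1 libraries did not overlap for Dppa5a, and their change of -0.22 passed in some other edgeR fits. These were upper quartile factors (adjusted p = 0.0299), no filter on low counts (0.0367) and the TIR1 groups fitted alone (0.0189).

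Dppa3 went in opposite directions in TIR1 and WAPL cells. TIR1 libraries had 5, 7.4 and 8.86 CPM untreated and 16.2, 22.7 and 21.6 CPM with auxin, a log2 change of 1.51 (SE 0.191, adjusted p = 1.43e-06). The treated values did not overlap those of any other group. WAPL libraries had 8.56, 5.85 and 5.83 CPM untreated and 5.6, 3.76 and 2.72 CPM treated (log2 -0.77, SE 0.207, adjusted p = 0.0044). This call was lost without the first untreated library (-0.54, adjusted p = 0.0695) or the third treated one (-0.53, adjusted p = 0.0645). PDS5AB libraries had 3.27, 4.17 and 3.53 CPM and then 3.02, 2.91 and 3.23 CPM (log2 -0.26, adjusted p = 0.357). In PDS5AB-NIPBL cells Dppa3 was at 1.44 to 1.69 CPM and then at 0.716 to 1.05 CPM (log2 -0.83, SE 0.316, adjusted p = 0.0649), and in WAPL-NIPBL cells at 5.83 to 7.26 and 5.57 to 7.26 CPM. Less the TIR1 effect, Dppa3 was lower in PDS5AB (-1.77, adjusted p = 3.99e-05), WAPL (-2.28, adjusted p = 5.75e-07), PDS5AB-NIPBL (-2.34, adjusted p = 7.91e-05) and WAPL-NIPBL cells (-1.53, adjusted p = 0.000626). These 4 differences share the TIR1 libraries and contain the rise in TIR1 cells.

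Counted over the 10 genes, 7 were lower in the PDS5AB effect less the TIR1 effect (26.3% of all genes called, 12.4% lower), and none was higher in any of these differences. In WAPL cells 3 were lower (20.7% called, 10.9% lower), in PDS5AB-NIPBL cells 2 (10.1% called, 4.81% lower) and in WAPL-NIPBL cells 2 (7.04% called, 3.94% lower). The effect in PDS5AB-NIPBL cells was above that in PDS5AB cells for 2 of the 10, Sox2 and Dppa4 (9.46% of all genes called, 4.97% higher), and the effect in WAPL-NIPBL cells was above that in WAPL cells for Sox2 (5.19% called, 3.03% higher). Same-numbered libraries of the 4 degron lines deviated together, so a fit with a block for replicate number within each line was added after the data were seen. Under it the treatment effects called 10 genes in WAPL cells (45.1% of all genes), 8 in WAPL-NIPBL cells (20.9%) and 9 in PDS5AB-NIPBL cells (32.1%), all lower. With the block Lin28a (adjusted p = 0.000561), Tdgf1 (0.000445), Dppa2 (0.0448) and Dppa5a (0.0117) were added in WAPL cells. In PDS5AB-NIPBL cells Sall4 (8.15e-05), Zfp281 (0.000581), Dppa3 (0.00391) and Dppa5a (0.000459) were added. In WAPL-NIPBL cells Sall4 (3.08e-05), Lin28a (0.00718), Zfp281 (0.016), Tdgf1 (0.00217) and Dppa5a (0.0457) were added.

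The block also raised the counts for differences between effects. Against PDS5AB, the PDS5AB-NIPBL effect was then above it for 6 of the 10 (24.4% of all genes called), with Pou5f1 (0.2, adjusted p = 0.00424), Sall4 (0.19, adjusted p = 0.0158), Zfp281 (0.28, adjusted p = 0.00188) and Dppa2 (0.4, adjusted p = 0.00206) joining Sox2 and Dppa4. Against WAPL, the WAPL-NIPBL effect was above it for 3 (15.5%), with Dppa4 (0.37, adjusted p = 0.00358) and Dppa3 (0.73, adjusted p = 0.00185) joining Sox2. The PDS5AB effect was below the WAPL effect for 7 and above it for 1, Dppa3 (27.3% called). The 6 that joined Lin28a on the lower side were Pou5f1 (-0.25, adjusted p = 0.000305), Sox2 (-0.27, adjusted p = 0.00128), Zfp281 (-0.19, adjusted p = 0.0366), Tdgf1 (-0.21, adjusted p = 0.00707), Dppa2 (-0.32, adjusted p = 0.00717) and Dppa4 (-0.27, adjusted p = 0.0297). Dppa3 was above by 0.5 (adjusted p = 0.0368).

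Before treatment the lines already differed in these genes. Untreated PDS5AB cells, compared with untreated TIR1 cells of the same run of library numbers, had 3 of the 10 higher and 3 lower (32% of all genes called, 15.5% higher and 16.5% lower). Lin28a (log2 0.49, adjusted p = 0.00212), Tdgf1 (0.49, adjusted p = 0.000417) and Dppa5a (0.36, adjusted p = 0.00312) were higher, and Sox2 (-0.39, adjusted p = 0.000202), Dppa4 (-0.44, adjusted p = 6.86e-05) and Dppa3 (-0.95, adjusted p = 0.000562) lower. Lin28a did not pass without the first untreated PDS5AB library (0.26, adjusted p = 0.0658), nor Dppa5a without the second (0.24, adjusted p = 0.0576). None of the 10 was called in untreated WAPL cells with edgeR or with DESeq2 (14% of all genes called with edgeR), and none had an unadjusted p under 0.05.

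Untreated PDS5AB-NIPBL cells had the lowest Dppa2, Dppa4 and Dppa3 of the untreated groups. Dppa2 was at 30.6, 30.1 and 38.4 CPM, beside 72.3, 90.6 and 76.8 CPM in TIR1 cells (log2 -1.27, SE 0.124, adjusted p = 2.68e-09). Dppa4 was lower by -0.96 (SE 0.082, adjusted p = 2.43e-10) and Dppa3 by -2.18 (SE 0.236, adjusted p = 2.05e-08). No library of this line overlapped TIR1 for these 3 genes, while Lin28a was higher by 0.45 (SE 0.121, adjusted p = 0.00454), so 4 of the 10 were called (34.3% of all genes, 16.5% higher and 17.8% lower). In untreated WAPL-NIPBL cells Dppa2 (-0.57, adjusted p = 0.000724) and Pou5f1 (-0.26, adjusted p = 0.0105) were lower and Sox2 higher (0.24, adjusted p = 0.0182), that is 3 of the 10 (28% of all genes called, 13.4% higher and 14.6% lower). Pou5f1 and Sox2 did not pass without the second TIR1 library (adjusted p = 0.0528 and 0.0765) or the second WAPL-NIPBL library (0.055 and 0.102). Dppa4 had 59.3 CPM on average in both untreated WAPL-NIPBL and untreated TIR1 cells.

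**Figure D3:**
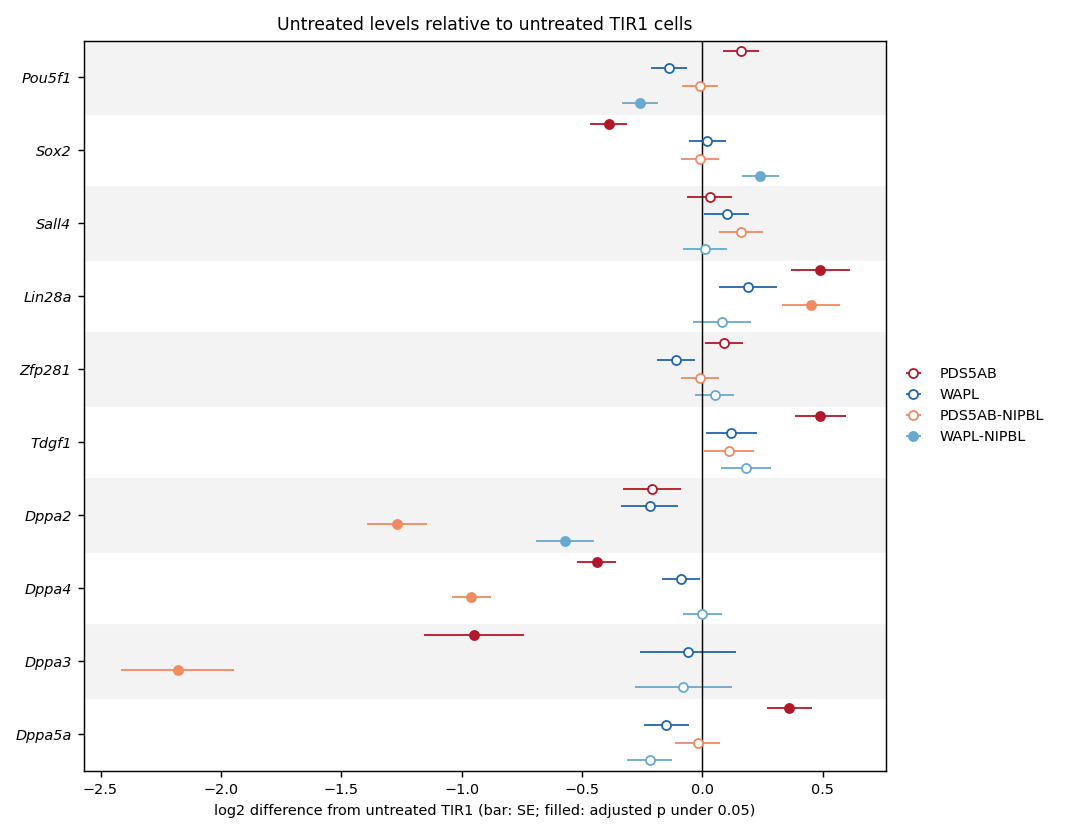
Log2 difference of untreated levels from untreated TIR1 cells (horizontal axis) for each gene in 4 degron lines. Bars are standard errors and filled points have an adjusted p under 0.05. The PDS5AB-NIPBL points of Dppa2, Dppa4 and Dppa3 lie farthest left, at -1.27, -0.96 and -2.18.

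Other genes of the stem cell network were counted in the same comparisons. Each count on treatment stands beside the shares of all genes called on treatment given above (46% in PDS5AB, 32.8% in WAPL, 19.5% in PDS5AB-NIPBL, 8.57% in WAPL-NIPBL and 19.9% in TIR1 cells). Of 12 naive pluripotency factors, which include Nanog, Esrrb, Klf4 and Prdm14, none rose in a degron line, while 12 fell in PDS5AB and 9 in WAPL cells, against 10 and 9 in PDS5AB-NIPBL and WAPL-NIPBL. Median log2 fold changes were -0.79, -0.55, -0.5 and -0.45 in that order. In TIR1 cells 3 rose and 4 fell. With the TIR1 effect subtracted, 12 of the naive factors were lower in PDS5AB and 6 in PDS5AB-NIPBL cells, 10 in WAPL and 7 in WAPL-NIPBL cells, and none was higher. Of all genes 26.3% were called in this difference in PDS5AB (12.4% lower) and 10.1% in PDS5AB-NIPBL cells (4.81% lower). In WAPL cells 20.7% were called (10.9% lower) and in WAPL-NIPBL cells 7.04% (3.94% lower). The same shares stand beside each later count against the TIR1 effect. Tcl1, a co-activator of the kinase AKT, went from 78.8 CPM ± 6.17 (SD, n = 3) to 28.3 ± 2.12 CPM in PDS5AB cells, and Prdm14, a repressor of differentiation genes, from 52.7 ± 1.88 to 21.9 ± 0.427 CPM in WAPL cells. Tcl1 also fell in TIR1 cells, from 117 ± 6.04 to 86.1 ± 3.89 CPM (log2 -0.44, SE 0.0873, adjusted p = 0.000559). Klf4, a naive factor, rose in TIR1 cells from 279 ± 27.3 to 415 ± 33.1 CPM (log2 0.57, SE 0.101, adjusted p = 0.000151).

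Of 15 other general stem cell genes, none rose, while 14 fell in PDS5AB and 10 in PDS5AB-NIPBL cells, 11 in WAPL and 8 in WAPL-NIPBL cells, and 5 in TIR1 cells. Against the TIR1 effect, 12 were lower in PDS5AB and 4 in PDS5AB-NIPBL cells, 3 in WAPL and 1 in WAPL-NIPBL cells, and 1 was higher in PDS5AB-NIPBL cells. The WAPL and WAPL-NIPBL counts lie near the 20.7% and 7.04% of all genes called in these differences and say nothing about the list. Utf1, a chromatin factor of undifferentiated cells, had the lowest log2 fold change of the list in every line. It was -2.42 in PDS5AB and -2.48 in PDS5AB-NIPBL cells, -2.08 and -2.02 in the WAPL and WAPL-NIPBL lines, and -1.88 in TIR1 cells, where it went from 80.8 ± 9.41 to 21.9 ± 4.95 CPM (SD, n = 3). Of 8 formative epiblast genes, 5 fell in PDS5AB and 4 in PDS5AB-NIPBL cells, 3 in WAPL and 3 in WAPL-NIPBL cells, and 5 in TIR1 cells. Against the TIR1 effect, 1 was higher and 1 lower in PDS5AB and likewise in PDS5AB-NIPBL cells. In WAPL cells 2 were higher, while 1 was lower in the WAPL-NIPBL line. For these formative genes the PDS5AB and WAPL counts lie near the 26.3% and 20.7% of all genes called and say nothing about the list. Etv4, a transcription factor downstream of FGF signalling, fell in all 5 lines, from 34.2 ± 16.9 to 9.19 ± 2.75 CPM in PDS5AB and from 64.8 ± 8.22 to 24.8 ± 0.421 CPM in TIR1 cells. Pou3f1, a formative factor, rose in PDS5AB cells from 4.66 ± 0.643 to 12.2 ± 1.23 CPM.

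Downstream of DPPA2 and DPPA4, 6 of 8 genes of the two-cell-like state were tested, and 5 rose in PDS5AB and 5 in WAPL cells. With edgeR 0 were called in either combined line or in TIR1 cells, where the unadjusted p was under 0.05 for 1 gene (Zscan4d) in each combined line and for 0 in TIR1 cells. Tested as a difference, the PDS5AB-NIPBL effect was called apart from the PDS5AB effect for 0 of the 6 genes, and the WAPL-NIPBL effect apart from the WAPL effect for 0 of 6, with 0 at an unadjusted p under 0.05 in both. The effect lay above the TIR1 effect for 4 of 6 genes in each of the PDS5AB and WAPL lines and for 1 gene in each combined line. Each of the 6 was highest in auxin-treated PDS5AB cells, and Tcstv3 and Zfp352 had at most 12 counts in any library of the other lines. These 2 therefore passed the filter on low counts through PDS5AB cells, and the counts over the 6 genes are a description. Untreated libraries of the combined lines held at most 1 and 5 counts of Zscan4d, so a change there was hard to detect at this depth. Zscan4d, of a family of near-identical copies and so uncertain, averaged 0.688 ± 0.297 CPM (SD, n = 3) without treatment in the TIR1 line and went from 9.57 ± 1.42 to 23.6 ± 4.43 CPM in PDS5AB cells and from 0.489 ± 0.299 to 2.81 ± 0.505 CPM in WAPL cells. Dppa2 and Dppa4 themselves were lower or not called in these lines. Of 7 genes of DNA methylation around DPPA3, 5 fell in PDS5AB and 4 in PDS5AB-NIPBL cells, 3 in WAPL and 3 in WAPL-NIPBL cells, and 3 in TIR1 cells. Against the TIR1 effect, 2 were higher and 2 lower in PDS5AB, WAPL and PDS5AB-NIPBL cells, and 1 was higher and 1 lower in WAPL-NIPBL cells. In these differences 26.3%, 20.7%, 10.1% and 7.04% of all genes were called, in that order. Uhrf1, which recruits DNMT1 and is bound by DPPA3, fell in PDS5AB cells from 635 ± 6.28 to 356 ± 9.58 CPM. Dnmt3a, a de novo methyltransferase, rose in PDS5AB (131 ± 17.5 to 184 ± 30.7 CPM) and WAPL cells (72 ± 3 to 98.3 ± 3.74 CPM). Tet2, which oxidises methylcytosine, fell in WAPL cells from 248 ± 43.3 to 104 ± 35.8 CPM and in WAPL-NIPBL cells from 287 ± 13.5 to 145 ± 13.5 CPM. Dnmt3l, a cofactor of DNMT3A, fell in TIR1 cells from 128 ± 8.43 to 37.6 ± 6.55 CPM and in PDS5AB-NIPBL cells from 184 ± 18.5 to 114 ± 9.29 CPM.

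Of 12 tested genes of the Nodal pathway that TDGF1 serves, 4 rose and 1 fell in PDS5AB, 2 rose in WAPL and 3 in PDS5AB-NIPBL cells, 0 were called in WAPL-NIPBL cells (edgeR, 2 at an unadjusted p under 0.05), and 3 rose and 2 fell in TIR1 cells. In PDS5AB and WAPL cells these counts lie below the 46% and 32.8% of all genes called and say nothing about the list. Against the TIR1 effect, 4 were higher and 1 lower in PDS5AB, 3 and 1 in PDS5AB-NIPBL, and 2 and 2 in both WAPL and WAPL-NIPBL cells. Of all genes 26.3%, 10.1%, 20.7% and 7.04% were called in these differences, in that order. Lefty1, a secreted Nodal inhibitor, rose in WAPL cells from 11.7 ± 2.82 to 50.5 ± 13.9 CPM and in PDS5AB-NIPBL cells from 15.8 ± 1.81 to 24.9 ± 6.9 CPM. In TIR1 cells Lefty1 fell from 14.5 ± 2.06 to 5.06 ± 0.758 CPM. Smad3, a signal transducer of the pathway, rose in PDS5AB cells from 16.6 ± 1 to 36.6 ± 2.24 CPM and in TIR1 cells from 25.5 ± 1.15 to 41.3 ± 1.28 CPM. Gdf3, a ligand on this list and the stem cell list, fell in PDS5AB cells from 172 ± 10.3 to 104 ± 2.1 CPM. Of 8 genes of the LIN28 and let-7 axis, 1 rose and 1 fell in PDS5AB cells, 0 were called in WAPL cells (edgeR, 2 at an unadjusted p under 0.05), 1 fell in each combined line, and 3 rose and 1 fell in TIR1 cells. These counts too lie below the shares of all genes called in PDS5AB and WAPL cells. Against the TIR1 effect, 1 was lower in PDS5AB and 2 in each other degron line, and 1 was higher in WAPL cells. The PDS5AB count lies near the 12.4% of all genes lower in that difference and says nothing about the list. Igf2bp3, an RNA-binding let-7 target, fell in PDS5AB cells from 66.1 ± 2.5 to 40 ± 4.23 CPM and in PDS5AB-NIPBL cells from 118 ± 10.5 to 97.7 ± 2.27 CPM. Tut7, a uridylase of let-7 precursors, rose in PDS5AB (47.5 ± 3.64 to 66.1 ± 4.31 CPM) and TIR1 cells (52.6 ± 4.19 to 68.7 ± 2.89 CPM). Hmga2, another target, fell in WAPL-NIPBL cells from 99.9 ± 20.3 to 69.4 ± 12.2 CPM and Lin28b, the paralog of Lin28a, in TIR1 cells from 3.4 ± 0.64 to 2.18 ± 0.146 CPM.

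**Figure D4:**
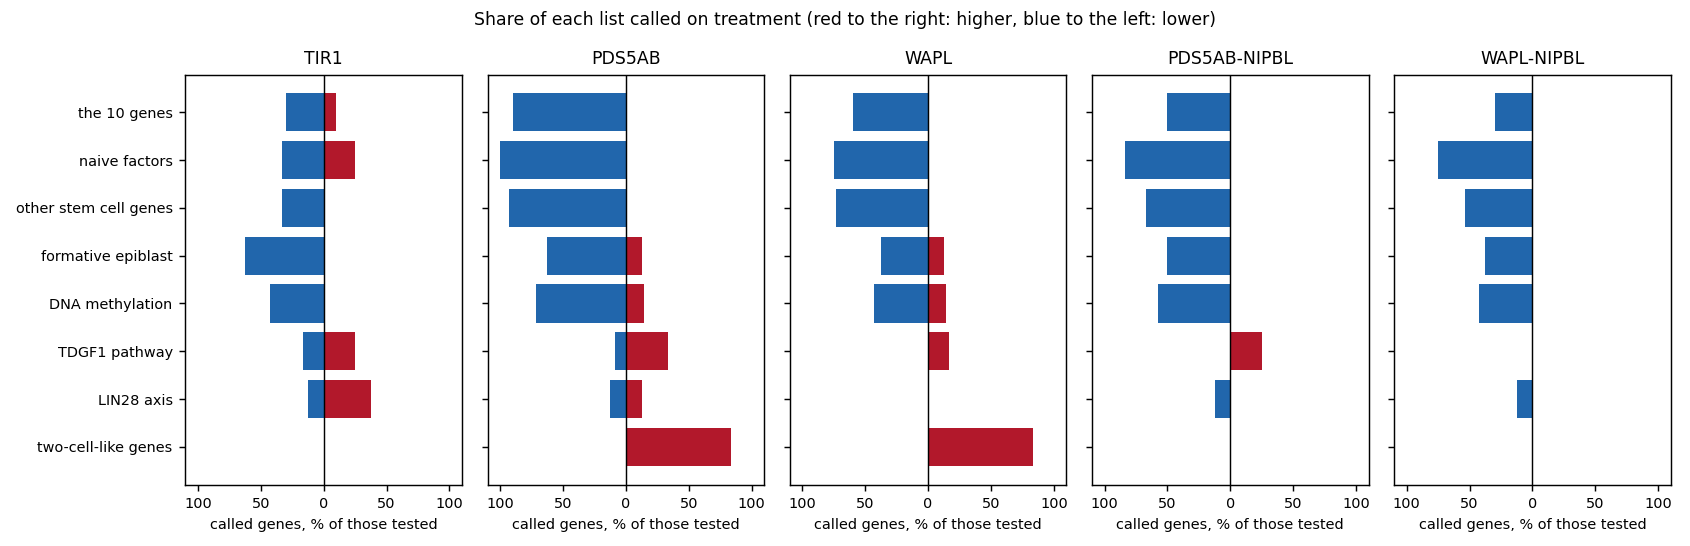
Share of each list called on treatment (horizontal axis, % of the genes tested) in each of 5 lines. Bars to the right are higher and bars to the left lower. The two-cell-like genes have bars at 5 of 6 genes in PDS5AB and in WAPL cells. None of the 6 was called in the difference between either combined line and the line without NIPBL targeted.

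Markers of primitive endoderm, the lineage that stem cells of the blastocyst border on, moved in the same libraries as these genes. Their 7 genes summed to 24.4 to 27.3 CPM in untreated and 59 to 72.6 CPM in treated PDS5AB libraries. In WAPL cells the sums were 10.3 to 13.2 and 38.1 to 53.8 CPM, in PDS5AB-NIPBL cells 10.5 to 13.1 and 30.1 to 36 CPM, and in WAPL-NIPBL cells 5.78 to 6.21 and 14.3 to 15.7 CPM. In TIR1 cells they were 7.76 to 8.71 and 10.1 to 11.2 CPM. Of the 7 markers 4, 5, 3, 3 and 1 rose in these lines and none fell, and no marker was at 0 throughout a group. Their part in the changes of the 10 genes was not tested.

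Finally, each gene was compared with the 12931 other genes of at least 50 counts on average by Pearson's r of log2 CPM over the 10 group means. These r share libraries and are a description. Sox2 was followed most closely by Tomm70a (r = 0.993) and Twistnb (0.989), Dppa5a by Gnl2 (0.992) and Dnajc15 (0.985), Lin28a by Msantd2 (0.987) and Tbp (0.929), and Pou5f1 by Nasp (0.981) and Tnpo3 (0.976). Tdgf1 was nearest to its own copy Tdgf1-ps1 (0.958), whose sequence it shares in part, and to Chchd6 (0.953). For Sall4 the nearest were Ybx1 (0.972) and Tfdp2 (0.966), for Zfp281 Atad5 (0.968) and Rad54l (0.962), and for Dppa4 Vasp (0.963) and Pdcd7 (0.963). Dppa2 was close to Clca3b (0.957), and Dppa3 was nearest to Scp2 (0.96) and Hint3 (0.958). Among the 10 genes themselves the lowest r was -0.193, between Sox2 and Dppa5a.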

How the data were processed

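The authors deposited raw counts of fragments per gene, made with featureCounts 2.0.1 on GENCODE vM23 exons of GRCm38, per the file headers. The submitters' processing notes name cutadapt, STAR 2.7.7a and deepTools. The recorded command sets no strand option, although the labels describe stranded polyA libraries. Symbols were matched for 55154 of 55421 identifiers (99.5%). Lengths of merged exons, deposited beside the counts, gave the values per kilobase.

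All 30 libraries were fitted in edgeR 4.0.16 (R 4.3.3) with a mean for each of 10 groups, TMM factors (0.95 to 1.13) and filterByExpr with a minimum count of 10, which kept 19868 genes and left 20 residual degrees of freedom. The common biological coefficient of variation was 9.15%. Quasi-likelihood p-values were adjusted by Benjamini-Hochberg over all 19868 genes in each of 16 comparisons, and standard errors come from the F statistic. The code was tested on simulated data. Same-numbered libraries deviated together in every pair of the 4 degron lines (correlations 0.109 to 0.333) but not in TIR1 cells (-0.0102 to 0.0574). Alternatives were RLE and upper quartile factors, no filter, DESeq2 1.42.0, a replicate block, the compared groups alone and each library left out.

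The members, lists and tests were chosen with earlier results of these data known. All members are named. Of each other list the text names the called gene with the largest change in each direction in each treatment effect, if its mean was at least 50 counts, and for each member the 2 genes with the highest correlation. Results for some genes that met this rule are not reported here.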

Additional observations from a re-analysis of the deposited data

Results flagged for a closer look

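Treatment effects on single genes differed between lines in 18 tests of the difference itself, given here on the log2 scale with edgeR's quasi-likelihood test adjusted over all genes. Less the TIR1 effect, the PDS5AB effect was lower for Pou5f1 (-0.51), Sox2 (-1.40), Sall4 (-0.38), Lin28a (-0.47), Zfp281 (-0.41), Dppa4 (-0.63) and Dppa3 (-1.77). The WAPL effect was lower for Sox2 (-1.13), Dppa4 (-0.36) and Dppa3 (-2.28). In PDS5AB-NIPBL cells Sox2 (-0.59) and Dppa3 (-2.34) were lower than the TIR1 effect, and in WAPL-NIPBL cells Sox2 (-0.47) and Dppa3 (-1.53). These 14 differences share the TIR1 libraries and cross the gap in library numbers. Without the TIR1 libraries, the PDS5AB-NIPBL effect exceeded the PDS5AB effect for Sox2 (0.81) and Dppa4 (0.47), and the PDS5AB effect lay below the WAPL effect for Lin28a (-0.77), each a comparison of effects from the different runs of library numbers. Within one run, the WAPL-NIPBL effect exceeded the WAPL effect for Sox2 (0.66).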

How the results depend on the processing

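Of 160 results for single genes, 58 were called, and 45 of these were called under every alternative run. No called result changed sign. Without the filter on low counts, 8 genes were called in the PDS5AB-NIPBL effect (17.6% of the 19868 genes), 5 in the WAPL-NIPBL baseline (25.9%) and 2 in WAPL-NIPBL less WAPL (5.54%). That last count was also 2 with the replicate block shared by all lines (7.7%) and with DESeq2 (7.75% of the 16663 of these genes with an adjusted p). With the block within each line, counts were 9 for PDS5AB-NIPBL, 10 for WAPL, 8 for WAPL-NIPBL, 6 for PDS5AB-NIPBL less PDS5AB, 3 for WAPL-NIPBL less WAPL and 8 for PDS5AB less WAPL. These calls are named in the report, with the shares of all genes, and the paired fit changed no other call. The block shared by all lines also called Sall4 in WAPL less TIR1 (-0.36, adjusted p = 0.00621) and Pou5f1 in PDS5AB-NIPBL less TIR1 (-0.31, adjusted p = 0.027).

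With libraries left out in turn, the count of called genes ran from 8 to 9 in PDS5AB, 5 to 6 in WAPL, 4 to 5 in PDS5AB-NIPBL, 2 to 3 in WAPL-NIPBL and 3 to 4 in TIR1 cells. For untreated levels it ran from 5 to 6 in PDS5AB, was 4 in PDS5AB-NIPBL and 0 in WAPL, and ran from 1 to 3 in WAPL-NIPBL cells. Less the TIR1 effect it ran from 5 to 7, 2 to 4, 2 to 3 and 2 to 2, in the order PDS5AB, WAPL, PDS5AB-NIPBL and WAPL-NIPBL. It ran from 2 to 3 for PDS5AB-NIPBL less PDS5AB, 1 to 2 for WAPL-NIPBL less WAPL and 1 to 3 for PDS5AB less WAPL.

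Values that changed sign all lay near 0 and were called in no setting. Against untreated TIR1, Sall4 was -0.02 in WAPL-NIPBL with upper quartile factors, and Pou5f1, Sox2 and Zfp281 were 0.01 in PDS5AB-NIPBL without the filter. With libraries left out in turn, Sall4 ran from -0.08 to 0.05 in the TIR1 effect, Dppa2 from -0.13 to 0.06 in the PDS5AB-NIPBL effect and Dppa3 from -0.12 to 0.10 in the WAPL-NIPBL effect. Against untreated TIR1, Sall4 ran from -0.11 to 0.11 in PDS5AB and -0.04 to 0.09 in WAPL-NIPBL, and Dppa3 from -0.27 to 0.14 in WAPL and -0.26 to 0.13 in WAPL-NIPBL. In PDS5AB-NIPBL, Pou5f1 ran from -0.03 to 0.04, Sox2 from -0.05 to 0.04, Zfp281 from -0.07 to 0.06 and Dppa5a from -0.08 to 0.03. Over all alternatives, Dppa4 ran from -0.03 to 0.05 in untreated WAPL-NIPBL and from -0.04 to 0.05 in WAPL-NIPBL less TIR1. Less the TIR1 effect, Tdgf1 ran from -0.18 to 0.04 in PDS5AB and -0.09 to 0.04 in PDS5AB-NIPBL, and Dppa5a from -0.20 to 0.03 in PDS5AB. Other differences between effects that were called neither in the 16 comparisons nor with the paired fit are left out of these values.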

Other observations

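Markers of other lineages stood at low to moderate levels in all groups and are given as summed CPM. The 7 trophoblast markers summed to 83.8 to 92.3 CPM in untreated and 134 to 141 CPM in auxin-treated TIR1 libraries, and to 83.7 to 103 and then 34.2 to 38.4 CPM in WAPL libraries. In PDS5AB cells the trophoblast sums were 63.5 to 77.1 and 66.1 to 70.2 CPM, in PDS5AB-NIPBL cells 71.8 to 81.1 and 42.9 to 46.6 CPM, and in WAPL-NIPBL cells 65.9 to 73.2 and 35.2 to 39.2 CPM. The 6 neural progenitor markers went from 192 to 220 CPM to 151 to 168 CPM in TIR1 cells, from 132 to 140 to 147 to 153 CPM in PDS5AB cells and from 162 to 190 to 215 to 250 CPM in PDS5AB-NIPBL cells. Their treated and untreated sums overlapped in WAPL (131 to 155 and 152 to 167 CPM) and WAPL-NIPBL cells (175 to 206 and 174 to 201 CPM). The 6 mesoderm markers went from 7.57 to 8.71 CPM to 10.9 to 12.5 CPM in TIR1, from 7.41 to 9.64 to 11.1 to 13.3 CPM in WAPL and from 11 to 13 to 14.9 to 21.2 CPM in WAPL-NIPBL cells. Mesoderm sums overlapped in PDS5AB (4.55 to 6.51 and 5.49 to 7.76 CPM) and PDS5AB-NIPBL cells (8.47 to 10.8 and 10.5 to 13.6 CPM). The 6 feeder fibroblast markers went from 13.4 to 14.1 CPM to 4.29 to 5.33 CPM in WAPL cells. There the 3 markers tested all fell (32.8% of all genes called, 15.8% lower). In TIR1 cells the feeder sums were 14.1 to 17.5 and 10.2 to 13.2 CPM, in PDS5AB cells 16.7 to 18.8 and 19.4 to 21.6 CPM, in PDS5AB-NIPBL cells 8.14 to 11 and 9.61 to 10.6 CPM, and in WAPL-NIPBL cells 10.3 to 12.4 and 7.37 to 8.13 CPM. Dcn was at 0 in every library of 6 groups. The part of these markers in the changes of the 10 genes was not tested.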
